A study of Mus musculus with 2 samples.

Results

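Neutrophils with transcripts of Retnlg and Mmp8 were examined in 1 single-cell library from mouse tumours. A kept cell belonged to this set when S100a8, S100a9, Csf3r and G0s2 together made up 2% or more of its UMIs (unique molecular identifiers, each standing for 1 captured RNA molecule), when Isg15, Rsad2, Ifit1 and Ifit3 together were under 1%, and when it held 3 or more UMIs of Retnlg and Mmp8 together. Of 10835 kept cells, 3518 passed the neutrophil gate set by the first 4 genes, and 1656 of these were members, here called Retnlg-high neutrophils. They made up 47.1% of the gate (exact Clopper-Pearson 95% interval 45.4 to 48.7%) and 15.3% of all kept cells (14.6 to 16.0%). The other 1862 gate cells, to which they were compared, consisted of 1850 cells with fewer than 3 UMIs of Retnlg and Mmp8 and 12 interferon-induced cells.

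The library was made with Chromium 3′ v3 reagents from subcutaneous 4T1 tumours, which grow from a mouse mammary carcinoma cell line, with the genotype given as WT. The labels call the treatment PCN and the design text calls it PATCH, and neither says what it is. A second library came from tumours of the same kind given PBS. Its counts were not analysed here, so no treated tumour is compared with a control tumour below. The sources used here give no age, dose, time after treatment or number of pooled animals. With 1 library there is no replicate, so no test was made and no p-value is given. Every interval covers counting error only and says nothing of the spread between animals.

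Neutrophils are short-lived white blood cells that finish their development in the bone marrow. Developing neutrophils make the proteins of their granules in waves, azurophil or primary granule proteins first, then those of specific or secondary granules such as lactoferrin and Mmp8, then gelatinase granule proteins such as Mmp9, and transcription of most granule genes falls as the cells mature. Blood neutrophils then enter tissues and tumours, where they can turn on chemokine and cytokine genes. Retnlg encodes a resistin-like secreted protein known from mouse marrow and blood neutrophils, and Mmp8 encodes the neutrophil collagenase.

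Transcription factors of the C/EBP and PU.1 families act on many neutrophil genes. The bases before the start sites of 4 genes are therefore shown, both genes that the membership rule counted together, Retnlg and Mmp8, and a pair of secondary granule genes that are described below, Ltf and Ngp. Each run is the 250 bases upstream of the RefSeq start site on GRCm38.p6, 5′ to 3′ on the plus strand, on which all 4 genes lie. They lie at chr16:48872358-48872607 for Retnlg, chr9:7558179-7558428 for Mmp8, chr9:111019042-111019291 for Ltf and chr9:110419558-110419807 for Ngp. Capitals mark matches on either strand to the C/EBP-type letters TTGCNNAA or to the PU.1-type letters AGGAAGT.
Retnlg: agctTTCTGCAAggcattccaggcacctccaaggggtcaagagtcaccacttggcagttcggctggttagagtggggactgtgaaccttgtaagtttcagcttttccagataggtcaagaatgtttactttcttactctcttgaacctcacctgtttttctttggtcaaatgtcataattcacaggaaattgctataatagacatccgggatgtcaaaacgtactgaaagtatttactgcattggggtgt
Mmp8: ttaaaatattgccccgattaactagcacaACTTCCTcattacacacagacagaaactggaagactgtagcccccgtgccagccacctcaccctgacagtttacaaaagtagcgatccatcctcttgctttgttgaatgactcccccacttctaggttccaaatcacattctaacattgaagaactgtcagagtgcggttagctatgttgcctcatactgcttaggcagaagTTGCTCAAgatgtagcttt
Ltf: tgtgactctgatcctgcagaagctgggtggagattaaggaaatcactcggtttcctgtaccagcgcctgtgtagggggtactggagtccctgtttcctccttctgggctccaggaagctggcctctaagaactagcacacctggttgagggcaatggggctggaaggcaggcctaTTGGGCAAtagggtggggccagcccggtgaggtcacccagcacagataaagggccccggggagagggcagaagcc
Ngp: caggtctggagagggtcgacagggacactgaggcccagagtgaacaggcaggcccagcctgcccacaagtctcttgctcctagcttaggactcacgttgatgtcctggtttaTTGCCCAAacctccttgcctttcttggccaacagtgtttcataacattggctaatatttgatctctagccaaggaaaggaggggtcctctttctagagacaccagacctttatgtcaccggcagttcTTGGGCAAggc
The C/EBP-type letters stood in all 4 windows, as 2 matches for Ngp, and those of PU.1 type only in that of Mmp8. Among 32851 upstream windows of the same length in the RefSeq table, 9.56% held the C/EBP-type letters and 7.69% the PU.1-type letters. Over Retnlg, Mmp8 and the genes with the highest ratios named below that had a window, 5 of 13 genes held the C/EBP-type letters and 3 of 13 the PU.1-type letters. For the genes with the lowest ratios these were 2 of 9 and 2 of 9. Among the 13 genes, the C/EBP-type letters stood only in the 4 shown and in Ly6g. Ceacam10, another secondary granule gene among the 13, held neither, so the 4 shown do not stand for the rest. Only the first window of each gene was counted, and further windows of the same genes would have added no gene. The 4 genes shown are among the 13, and the match of PU.1 type in Mmp8 did not overlap the other. A match describes the letters and shows no binding.

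The values that chose the cells are a description and support nothing. Cell numbers fell from 0 to 4 UMIs of Retnlg and Mmp8 with no gap at the limit of 3. Leaving out the 12 interferon-induced cells, there were 1172 gate cells with none, 425 with 1, 253 with 2, 189 with 3 and 135 with 4, followed by 363 with 5 to 9, 429 with 10 to 29 and 540 with 30 or more. Within the members the counts were uneven, and the 166 cells with the most Retnlg held 41.5% of the members' 44640 Retnlg UMIs. Retnlg itself ranged from 1 UMI at the 5th percentile through a median of 12 to 234 at most, and was at 0 in 52 members that passed through Mmp8.

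**Figure D1:**
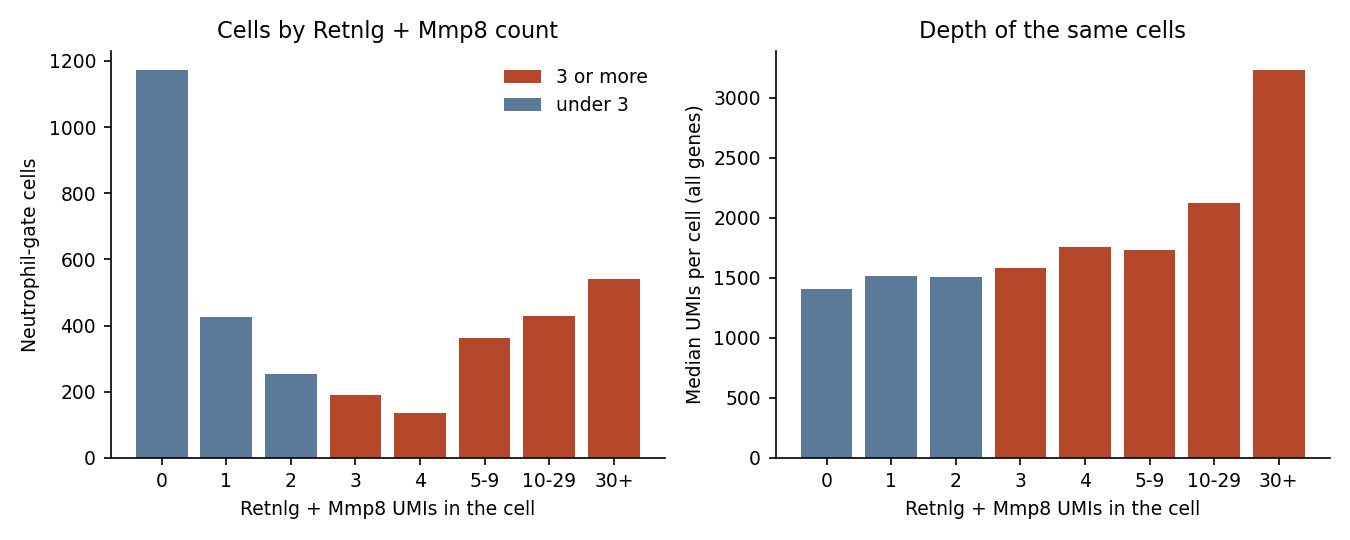
Neutrophil-gate cells, without the 12 interferon-induced cells, by their number of Retnlg and Mmp8 UMIs. The left panel gives the number of cells in each class and the right panel the median UMIs of those cells over all genes, with members in red (3 or more UMIs) and the other gate cells in blue. Cells without either transcript were the most frequent class, at 1172 cells, and the 540 cells with 30 or more UMIs were the deepest, at a median of 3232 UMIs.

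Depth moved with membership. The median member had 2173.5 UMIs and 794 detected genes, against 1445 UMIs and 616 genes in the other gate cells, and a cell with more UMIs passes a limit of 3 UMIs more easily. When each cell was thinned to 1000 UMIs at random, leaving out 108 members and 423 other gate cells that were shallower, the median was 466 genes in members and 483 in the others. Applying the whole rule to kept cells thinned to 1000 UMIs gave 1221 members, 40.7% of the gate cells so found. The median share of UMIs on the 4 gate genes was 11.8% in members and 5.88% in the others, and the median mitochondrial share was 0.662% and 0.495%. All 10 rule genes took 14.7% of the UMIs of members and 6.87% of the others, so that every other gene has a smaller remaining share in members.

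The 6 genes given as marks of these cells were all higher in members. Levels are given in CPM, the UMIs of a gene over all UMIs of a group of cells, scaled to 1000000. The rule used Retnlg (9828 CPM in members and 228.8 in the others), Mmp8 (997.6 and 85.8), S100a8 (50263 and 16131) and S100a9 (73320 and 34704). S100a8 and S100a9 encode the subunits of calprotectin, a calcium-binding protein that fills the neutrophil cytosol. The rule did not use the remaining pair. Prok2, a chemokine-like secreted peptide, was at 616.3 CPM (594 to 639.5) against 100.5 (89.5 to 113), 6.13 times (exact conditional Poisson interval 5.44 to 6.93). Wfdc21, a small secreted protein with a whey acidic protein domain, was at 2330 CPM (2286 to 2375) against 472.4 (448 to 498), 4.93 times (4.67 to 5.22).

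Retnlg UMIs were less frequent in cells of another type, and whether these came from free RNA was not tested. The rule set the shares in members and in the other gate cells, which are given as a description. In cells thinned to 1000 UMIs, 92.2% of members (90.7 to 93.5%; 96.9% before thinning) and 18.6% of other gate cells (16.6 to 20.7%; 27.6% before) held a Retnlg UMI. In 3448 macrophages, defined as cells outside the gate with 3 or more UMIs of the C1q genes and a median of 8625.5 UMIs, the share was 2.03% (1.58 to 2.56%; 11.75% before). For Prok2, which the rule did not use, the 3 shares were 28.0%, 5.0% and 0.176%, and for Wfdc21 71.7%, 26.6% and 1.62%. Before thinning they were 38.1%, 6.28% and 1.015% for Prok2, and 80.7%, 32.4% and 7.77% for Wfdc21. Macrophages were deeper than gate cells, so thinning removed more of their UMIs. Their shares are therefore no measure of free RNA in gate cells.

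The name under which these cells were proposed calls them recently arrived. No measure in these files gives the time at which a cell entered the tumour. Cxcr2, the receptor through which neutrophils are drawn from blood, was at 312.2 CPM in members and 295.2 in the others, 1.06 times (0.972 to 1.15), an interval that includes equal levels. Cxcr4, which marks aged neutrophils, was lower in members, at 69.8 CPM against 147.1, 0.474 times (0.409 to 0.549), but its log2 ratio of −1.07 was −0.60 among cells of 1000 to 3000 UMIs and −0.86 without granule-rich cells (those with 3 or more UMIs of Ngp, Ltf and Camp), both short of 2-fold. The name Retnlg-high is therefore used here, after the rule.

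Over all genes, the difference between members and the other gate cells went both ways. Of 5092 genes with 100 or more UMIs over both sets, rule genes left out, 217 were 2-fold or more higher in members and 236 were 2-fold or more lower. These are 4.26% and 4.63% of the genes tested. The median log2 ratio was −0.11. With totals that leave out the rule genes, the numbers were 286 higher and 157 lower, so that 64.6% of the calls were on the higher side in place of 47.9%, and with ratios centred on the median gene they were 272 and 171 (61.4%). Since the cells were chosen by 2 genes of the same table, genes that follow those 2 from cell to cell had to differ, and the numbers describe the set without testing it.

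**Figure D2:**
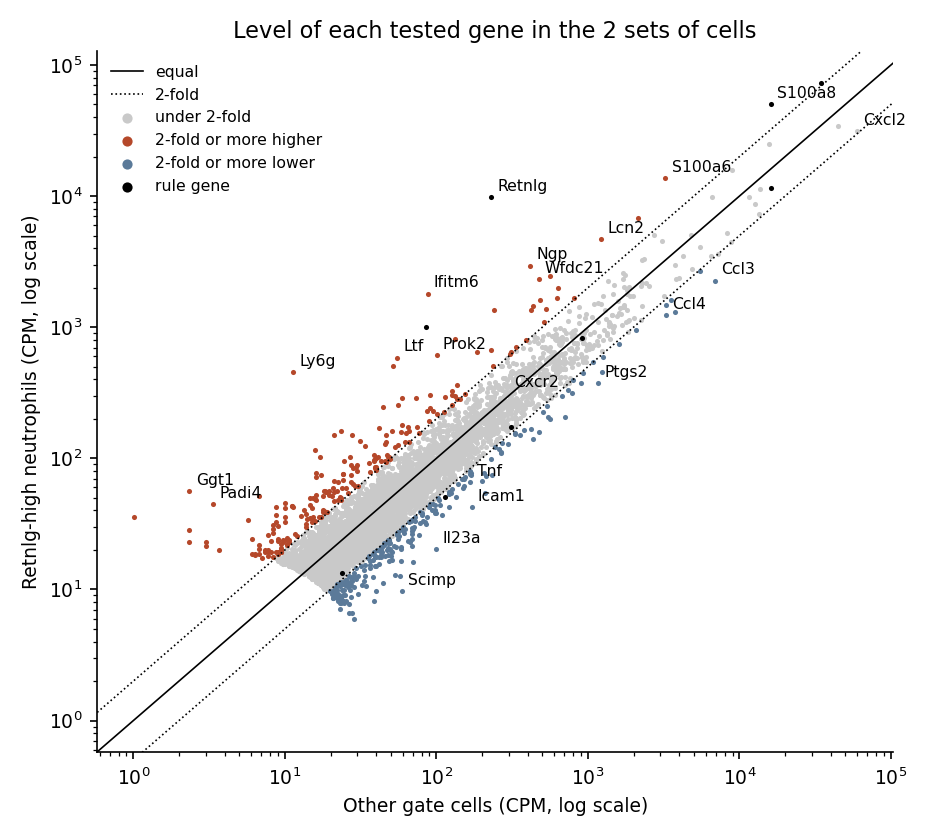
CPM of each gene in Retnlg-high neutrophils (vertical) and in the other gate cells (horizontal), both on log scales, with 1 point per gene with 100 or more UMIs. Red and blue points are 2-fold or more higher or lower, black points are rule genes, the full line marks equal levels and dotted lines mark 2-fold. Ly6g and Ifitm6 lie far above the diagonal next to Retnlg, and Scimp and Il23a lie below it, while Cxcr2 lies on it.

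Ly6g, the surface antigen that defines mouse neutrophils for flow cytometry, had the highest ratio outside the rule among genes with 200 or more UMIs. It was at 453.8 CPM in members (434 to 474; 2061 UMIs) and 11.4 CPM in the other gate cells (7.89 to 15.9; 34 UMIs), 39.8 times (28.4 to 57.7). The 3 highest after it were Ggt1, a glutathione-cleaving enzyme, at 23.9 times (11.4 to 60.1), Ifitm6, an interferon-induced membrane protein family member, at 20.6 times (18.2 to 23.4), and Padi4, the enzyme that citrullinates histones in neutrophil extracellular traps, at 13.3 times (7.07 to 28.1). Ly6g was unevenly spread over the members, since it was at 0 in 74.0% of members and reached 42 UMIs in 1 cell. A Ly6g UMI remained in 17.8% of thinned members, 0.903% of thinned other gate cells and 0.0882% of thinned macrophages. For Ifitm6, at 1804 and 87.5 CPM, the shares were 32.2%, 2.22% and 2.26%, and before thinning 37.9%, 3.22% and 13.6%. The shares of the other gate cells and the macrophages were thus alike only after thinning.

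The mature blood neutrophil list held 21 tested genes, of which 8 were 2-fold or more higher in members and 1 lower (median log2 ratio 0.45), beside the 4.26% higher and 4.63% lower among all genes tested. Besides Ly6g, Ifitm6, Padi4, Prok2 and Wfdc21, the higher genes were Anxa1, a glucocorticoid-induced brake on neutrophil adhesion, at 5.62 times (5.20 to 6.08), Rflnb at 4.82 times (3.56 to 6.66) and Cd177, a surface partner of integrins, at 4.54 times (3.86 to 5.38). For Cd177 the log2 ratio of 2.18 was 0.98 among cells of 1000 to 3000 UMIs and 1.04 without granule-rich cells. Dusp1, a phosphatase that switches off MAP kinases, was lower at 0.488 times (0.477 to 0.4996). The remaining 12 lay between, among them Trem1 at 1.17 times (1.11 to 1.23) and Il1r2, the decoy receptor for interleukin-1, at 0.785 times (0.753 to 0.819). Genes usually counted together as marks of blood neutrophils thus differed widely in how they divided these cells.

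Secondary granule genes were mostly higher in members. Of 13 tested genes, 10 were 2-fold or more higher and none lower, beside 4.26% higher and 4.63% lower among all genes tested. All 13 log2 ratios were above 0, with a median of 1.74. Among cells of 1000 to 3000 UMIs, 6 of 13 were higher (median 0.98), beside 76 of 3566 over all genes. The log2 ratio of Ltf was then 1.75 in place of 3.41, and that of Ceacam10 1.48 in place of 2.83. Ltf (lactoferrin, which binds iron) was at 585.4 CPM against 54.9, 10.7 times (9.10 to 12.6), and Ceacam10 at 151.0 against 21.1, 7.16 times (5.52 to 9.42). Ngp (neutrophilic granule protein) was at 2951 CPM against 415.1, 7.11 times (6.71 to 7.54). Lcn2, which traps bacterial siderophores, was at 4721 CPM against 1218, 3.88 times (3.74 to 4.02), and Camp, the cathelicidin, at 1618 against 482.8, 3.35 times (3.17 to 3.55). Among the other gate cells Ngp, Ltf and Camp came from few cells, since 1 cell gave 30.2% of their Ngp UMIs and 29.3% of their Ltf UMIs. The minority of cells rich in Ngp, Ltf and Camp is described below.

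Other granule classes differed less. Of 13 tested genes of tertiary granules and secretory vesicles, 2 were higher, the peptidoglycan-binding Pglyrp1 at 6.12 times (5.51 to 6.80) and the membrane protease Mmp25 at 2.49 times (2.02 to 3.08), which was short of 2-fold among cells of 1000 to 3000 UMIs (log2 ratio 0.76). Mmp9, the gelatinase, was at 689.6 CPM against 518.6, 1.33 times (1.25 to 1.41). Itgam, the integrin chain CD11b, was at 564.7 and 544.1 CPM, 1.04 times (0.975 to 1.10). Genes of the primary granule list had few UMIs, with 3 of 9 genes reaching 100, 1 higher and 1 lower. The 3 were Prtn3, Serpinb1a and Igfbp4, of which only Prtn3 encodes a protein of these granules. Of these, the protease Prtn3 was at 0.338 times (0.252 to 0.449), but 75.3% of its UMIs in the other gate cells came from 1 cell, and without the top cell of each set its log2 ratio was 0.32. Serpinb1a, an inhibitor of the neutrophil serine proteases, was at 5.42 times (4.31 to 6.90), and 1 cell gave 43.4% of its UMIs in the other gate cells.

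Stefin A genes, which encode cytosolic inhibitors of cathepsins and lie side by side in the genome, were higher for 4 of 6 tested members (median log2 ratio 1.88). Stfa3 was at 505.1 CPM against 51.6, 9.79 times (8.31 to 11.6), and Stfa2 at 1441 against 431.5, 3.34 times (3.15 to 3.55). Cstdc5 was at 4.35 times (4.13 to 4.58) and Cstdc6 at 4.07 times (3.36 to 4.96). These genes are near-identical copies, so how the counting divided reads between them is uncertain. Of 5 tested S100 genes outside the rule, S100a6 was at 13721 CPM against 3239, 4.24 times (4.15 to 4.33), and the other 4 lay between 1.44 and 1.86 times.

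Genes of the NADPH oxidase, whose complex makes superoxide, and of actin and motility were mostly somewhat higher in members, with few past 2-fold. Log2 ratios were above 0 for 8 of 9 and 24 of 28 tested genes, with medians of 0.38 and 0.49 against −0.11 over all genes. In the first list Cybb, the catalytic subunit of the oxidase, was at 2.62 times (2.35 to 2.92) and Rac2, its activating GTPase, at 2.12 times (1.98 to 2.28). Neither passed 2-fold among cells of 1000 to 3000 UMIs, where their log2 ratios were 0.16 and 0.79. Of 28 genes in the actin and motility list, 4 were higher by 2.02 to 2.12 times, namely Coro1a, Tmsb10, Rac2 and Vim. None of the 28 passed 2-fold among cells of 1000 to 3000 UMIs, where Tmsb10 was at −0.11. None of 22 oxidative phosphorylation genes passed 2-fold either way (median log2 ratio 0.12).

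Glycolysis and the pentose phosphate pathway were represented by single genes. Of 30 tested hypoxia and glycolysis genes, Gpi1, the second enzyme of glycolysis, was higher at 2.40 times (2.14 to 2.69), and the list had a median log2 ratio of −0.20. Without granule-rich cells Gpi1 was at a log2 ratio of 0.96 and no gene of the list was past 2-fold. G6pdx, which feeds glucose into the pentose phosphate pathway and so supplies NADPH, was at 51.7 CPM against 6.70, 7.72 times (4.89 to 12.9). Adpgk, an ADP-dependent glucokinase, was at 7.33 times (5.43 to 10.1), and Aldh2, the mitochondrial aldehyde dehydrogenase, at 6.89 times (5.39 to 8.94). Without granule-rich cells the log2 ratios of G6pdx, Adpgk and Aldh2 were 1.62, 1.69 and 1.57, in place of 2.92, 2.86 and 2.78. Adpgk was at 338.7 CPM in granule-rich members, 27.9 in the other members and 15.75 in the other gate cells. For Aldh2 these levels were 444.3, 50.9 and 23.45 CPM. Gclm, which limits glutathione synthesis, was at 132.5 CPM against 46.6, 2.85 times (2.36 to 3.45). Alox5ap, needed for leukotriene synthesis, was at 1980 CPM against 631.2, 3.14 times (2.98 to 3.30), while Ptgs2, the inducible cyclooxygenase of prostaglandin synthesis, was at 376.3 against 1170, 0.322 times (0.303 to 0.341).

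Cytokines and NF-kB targets were on the lower side in members. Of 22 tested genes, 9 were 2-fold or more lower and none higher, and 21 of 22 log2 ratios were below 0 (median −0.86). Il23a, a subunit of interleukin-23, was at 20.3 CPM (16.3 to 24.8) against 99.5 (88.5 to 112), 0.204 times (0.159 to 0.258). Tnf was at 65.8 CPM against 167.5, 0.393 times (0.339 to 0.454), and Csf1, the macrophage growth factor, at 159.0 against 474.1, 0.335 times (0.306 to 0.367). Il1b was at 7243 CPM against 13470, 0.538 times (0.530 to 0.546), so members still carried much of it, and a UMI of Il1b was found in 88.4% of thinned members and 97.6% of thinned other gate cells. Once cells with 3 or more UMIs of Ngp, Ltf and Camp were left out of both sets, 4 of the 22 genes were 2-fold lower. Among cells of 1000 to 3000 UMIs 5 of 21 were. Calls also became fewer over all genes, from 236 of 5092 lower to 101 of 4597 and 125 of 3566 in these settings.

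Genes known from tumour-infiltrating neutrophils were also on the lower side. Of 25 tested genes of that list, 8 were 2-fold or more lower and none higher, beside 4.63% lower and 4.26% higher among all genes tested. Of their log2 ratios 23 were below 0 (median −0.73). Among cells of 1000 to 3000 UMIs 6 of 24 were lower (median −0.62), and without granule-rich cells also 6 of 24 (median −0.49). Over all genes these settings gave 125 of 3566 and 101 of 4597 lower. Ccl3 and Ccl4, chemokines for monocytes and lymphocytes, were at 2267 CPM against 6856, 0.331 times (0.323 to 0.339), and at 1242 against 3261, 0.381 times (0.368 to 0.394). Icam1, the ligand of leukocyte integrins, was at 42.5 CPM against 170.5, 0.249 times (0.210 to 0.295). Ccrl2, a chemerin-binding receptor, was at 0.351 times (0.340 to 0.362) and Hcar2, the receptor for niacin and ketone bodies, at 0.441 times (0.411 to 0.473). Cd274, the checkpoint ligand PD-L1, was at 378.0 CPM against 755.2, 0.501 times (0.470 to 0.533), just short of 2-fold. Siglecf had 21 UMIs in members and 47 in the others, too few to be tested.

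Ccl3 did not divide the cells cleanly. The median was 1 UMI in both sets, the 95th percentile was 33.25 UMIs in members and 60 in the others, and 3 or more UMIs of Ccl3 and Ccl4 were present in 34.1% of members (31.8 to 36.4%) and 47.1% of other gate cells (44.8 to 49.4%). The other gate cells were themselves uneven. A split made after the data were seen gave 639 cells with Ccl3 and Ccl4 at 0.5% or more of their UMIs and 1211 cells below it. Ly6g was at 4.70 CPM in the first and 15.2 in the second, Wfdc21 at 491.7 and 464.9, and S100a6 at 3183 and 3269, so each of these genes was lower in both than in members. Icam1 was at 260.4 CPM in the first and 120.8 in the second, both above its 42.5 in members.

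The 12 genes with the lowest ratios also included several of signalling and stress. Scimp, an adaptor that scaffolds Toll-like receptor signalling, was lowest at 9.69 CPM against 59.0, 0.164 times (0.115 to 0.230). Atf5, a stress-response transcription factor, was at 0.244 times (0.178 to 0.331), Gadd45b, a stress-induced regulator of MAP kinases, at 0.289 times (0.267 to 0.312), and Ptpn22, a phosphatase that restrains leukocyte signalling, at 0.285 times (0.214 to 0.376). Creb5 was at 0.322 times (0.282 to 0.366) and Rbks, ribokinase, at 0.314 times (0.244 to 0.402), and the unnamed models Gm4107 and Gm26535 at 0.234 and 0.222 times. Bcl2a1a, Bcl2a1b and Bcl2a1d, anti-apoptotic BCL2 relatives, were at 0.261, 0.377 and 0.386 times, though these 3 are near-identical copies. They were the 3 lower genes of 24 in the survival list, in which Mcl1, the main survival factor of neutrophils, was at 0.788 times (0.768 to 0.808).

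Chemokine and receptor lists were mixed. Of 13 tested chemokines 4 were lower (2 of 12 without granule-rich cells), namely Ccl3, Ccl4, Cxcl1 at 0.468 times (0.434 to 0.505) and Cxcl10 at 0.443 times (0.349 to 0.560), for which 1 cell gave 37.7% of the UMIs of members. Ppbp, a platelet chemokine, was higher with 163 UMIs against 3, but 33.1% of the 163 came from 1 cell, and with members chosen by a share of 0.15% of UMIs its log2 ratio was −1.28. Cxcl2, an attractant of neutrophils, was at 31437 CPM against 59649, 0.527 times (0.523 to 0.531). Of 15 tested chemoattractant receptors 4 were lower (Ccrl2, Cxcr4, Fpr3 and P2ry2) and Ccr2 was higher at 2.30 times (1.65 to 3.27), with a log2 ratio of −0.18 among cells of 1000 to 3000 UMIs. Among cells of 1000 to 3000 UMIs 1 of 11 tested receptors was 2-fold lower, Ccrl2 (log2 ratio −1.05). P2ry2 was at −1.10 there, with too few UMIs to be tested. Without granule-rich cells 1 of 15 was lower. Over all genes these settings gave 125 of 3566 and 101 of 4597 lower, in place of 236 of 5092. The formyl peptide receptor Fpr1 was at 1.02 times (0.943 to 1.10) and the complement receptor C5ar1 at 0.793 times (0.754 to 0.834).

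Sensors of microbial products and antigen presentation genes lay closer together. None of 17 tested pattern recognition genes passed 2-fold (median log2 ratio −0.30). Tlr4, the endotoxin receptor, was at 306.5 CPM against 610.1, 0.502 times (0.468 to 0.539), and Tlr2 at 1.05 times (0.911 to 1.21). Of 13 tested MHC class I genes, H2-Q7 was lower at 0.425 times (0.340 to 0.531) and Nlrc5, the class I transactivator, at 0.460 times (0.321 to 0.655). Neither was past 2-fold without granule-rich cells, and among cells of 1000 to 3000 UMIs 1 of 10 tested was, with Nlrc5 at a log2 ratio of −0.80. Of 23 type I interferon genes outside the rule, 3 were lower and Ifitm3 was higher at 2.60 times (2.46 to 2.75). Immediate early genes were lower for 6 of 23. This was 1 of 22 among cells of 1000 to 3000 UMIs, where Dusp2 and Egr2 were both at a log2 ratio of −1.22, 1 of them with too few UMIs to be tested. It was 2 of 23 without granule-rich cells and 2 of 21 without macrophage and monocyte marker cells. Over all genes, these 3 settings gave 125 of 3566, 101 of 4597 and 215 of 4011 lower, in place of 236 of 5092. Fosl1, an AP-1 subunit, was higher at 3.28 times (2.58 to 4.21).

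**Figure D3:**
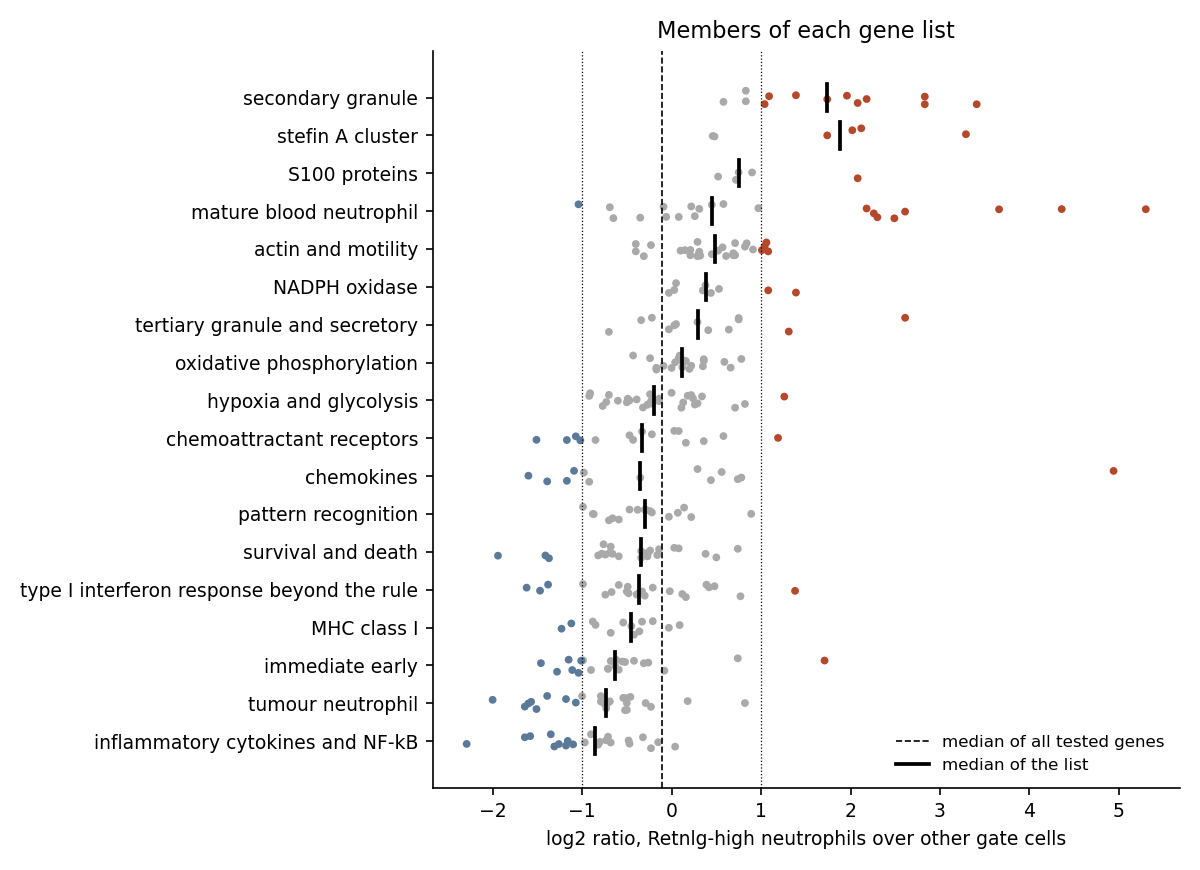
Log2 ratio of Retnlg-high neutrophils over other gate cells for each tested gene (1 point each) of 18 gene lists, with the list median as a black bar, the median of all tested genes as a dashed line at −0.11 and 2-fold as dotted lines. Red points are 2-fold or more higher and blue points lower, with small random vertical shifts for legibility. Secondary granule and stefin A genes lie to the right, at medians of 1.74 and 1.88, and the NF-kB list lies to the left, at −0.86.

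Transcription factor genes differed little as a list. Of 31 tested, 1 was higher and 1 lower (median log2 ratio −0.29), and none was called among cells of 1000 to 3000 UMIs or without granule-rich cells. Nfe2, an erythroid and myeloid leucine zipper factor, was at 29.1 CPM against 8.38, 3.47 times (2.25 to 5.55), and Maff, a small Maf protein, at 121.8 against 245.2, 0.496 times (0.444 to 0.555). Among cells of 1000 to 3000 UMIs Nfe2 had a log2 ratio of 1.13 but too few UMIs to be tested, and Maff was at −0.59. Without granule-rich cells they were at 0.86 and −0.67. Spi1, which encodes PU.1, was at 1.43 times (1.33 to 1.54). Cebpb, the C/EBP factor of activated myeloid cells, was at 9921 CPM against 11650, 0.852 times (0.840 to 0.864), and Cebpd at 0.743 times (0.676 to 0.817).

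Redox and stress genes gave a few calls each. Of 22 tested redox and metal genes, Gclm, Lcn2, Gpx1 and Mt2 were higher. Gpx1, a glutathione peroxidase, was at 2.17 times (1.99 to 2.36), and Tfrc, the transferrin receptor, was the lower gene at 0.305 times (0.194 to 0.470). Among cells of 1000 to 3000 UMIs 2 of 20 tested genes were higher and none lower. Tfrc was at a log2 ratio of −1.45 there, with too few UMIs to be tested. For Mt2, a metallothionein, 1 cell gave 23.3% of the UMIs of members. Of 18 tested stress genes 2 were lower and none higher, Ppp1r15a, which ends the integrated stress response, at 0.355 times (0.327 to 0.385) and Sqstm1, an autophagy adaptor, at 0.399 times (0.364 to 0.437). Among 14 adhesion genes Icam1 was lower and Cd177 higher, and Itgal, the chain of the integrin LFA-1 that binds Icam1, was at 1.82 times (1.54 to 2.15).

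Genes used for suppressive neutrophils went in both directions. Of 20 tested, Arg1, Nos2 and Wfdc17 were higher and Ptgs2, Clec4n and Il10 lower, and among cells of 1000 to 3000 UMIs 1 of 18 was higher and 2 lower. Wfdc17, a secreted whey acidic protein, was at 6764 CPM against 2145, 3.15 times (3.07 to 3.24). Nos2, the inducible nitric oxide synthase, was at 85.4 against 39.9, 2.14 times (1.74 to 2.65). Arg1, arginase, was at 2.45 times (2.09 to 2.88), but 13.7% of its UMIs in members came from 1 cell and its log2 ratio was −0.67 among cells of 1000 to 3000 UMIs.

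Markers of monocytes were higher in members taken as a whole. Of 9 tested monocyte markers, 5 were higher (Ly6c2, Ccr2, Vcan, F13a1 and Ms4a4c, by 2.30 to 4.51 times) and Cx3cr1 was lower. All 10 had a UMI in both sets, the summed level was 685.4 CPM in members and 419.5 in the others, and 7.97% of members (6.71 to 9.38%) and 3.33% of the others (2.56 to 4.25%) held 3 or more of their UMIs. In the 464 members over 3000 UMIs the summed level was 1117 CPM and the share with 3 or more UMIs 24.6% (20.7 to 28.8%), and in the 1084 members of 1000 to 3000 UMIs they were 210.9 CPM and 1.66% (0.987 to 2.61%). The other gate cells had 1190 CPM and 32.0% (21.7 to 43.8%) in 75 cells over 3000 UMIs, and 282.1 CPM and 2.42% (1.67 to 3.38%) in 1364 cells of 1000 to 3000. Within each class the intervals of the shares in members and in the others overlapped. Among cells of 1000 to 3000 UMIs, 4 of the markers were tested, with none 2-fold higher and 1 lower (median log2 ratio −0.44).

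Macrophage markers, all 14 with a UMI in both sets, had summed levels of 1279 CPM in members and 1440 in the others, and 17.6% and 11.01% of cells held 3 or more of their UMIs. Their part in the ratios was not tested beyond leaving such cells out. Without cells holding 3 or more UMIs of either list, 160 of 4011 tested genes were higher and 215 lower. The log2 ratios of Ly6g, Wfdc21 and Ccl3 were then 5.32, 2.40 and −1.44, in place of 5.30, 2.30 and −1.60. Eosinophil markers were at 9.03 CPM in members and 19.4 in the others, with the granule genes Prg2, Epx and Ear6 at 0 in both.

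To hold depth within a range, gate cells of 1000 to 3000 UMIs, interferon-induced cells left out, were divided by the share of their UMIs on Retnlg and Mmp8. The 5 classes were 0 (845 cells), under 0.15% (498), 0.15 to 0.5% (511), 0.5 to 1.5% (354) and 1.5% or more (231), with median depths between 1550 and 2121 UMIs. Ifitm6 was at 16.8, 44.1, 133.0, 603.6 and 1324 CPM over these classes, higher in each than in the class before with no overlap of neighbouring intervals. Ly6g was at 3.65 (1.19 to 8.53), 17.7 (10.1 to 28.7), 30.7 (20.2 to 44.7), 156.1 (128 to 189) and 367.6 CPM (315 to 426), where the intervals of the classes under 0.15% and 0.15 to 0.5% overlapped. Wfdc21 went from 358.7 to 2885 CPM, Prok2 from 94.2 to 881.5 and S100a6 from 2871 to 16508, each higher in every class than in the class before, though neighbouring intervals of Prok2 overlapped at 0.15%. In CPM, the largest steps of Ly6g and Ifitm6 lay between the 3 upper classes.

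In the same 5 classes Ccl3 was at 8488, 6277, 3668, 2787 and 1817 CPM and Icam1 at 208.2, 118.1, 64.8, 46.1 and 10.4 CPM, both lower in each class than in the class before, though the intervals of Icam1 overlapped between 0.15 to 0.5% and 0.5 to 1.5%. Cxcl2 went from 68424 to 30701 CPM, Il1b from 14914 to 6930, Ptgs2 from 1303 to 196.3, Cd274 from 786.9 to 363.4 and Tlr4 from 691.2 to 254.8. Scimp was at 75.2 CPM in cells without Retnlg or Mmp8, and at 0 UMIs in both classes from 0.5% upward, with exact upper bounds of 5.48 and 7.71 CPM. Cxcr2 went from 303.2 to 428.2 CPM, a smaller difference than those of the genes above. Il1r2 lay between 1280 and 1502 CPM in all 5. The monocyte marker F13a1 lay between 4.18 and 23.9 CPM with no course in 1 direction.

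**Figure D4:**
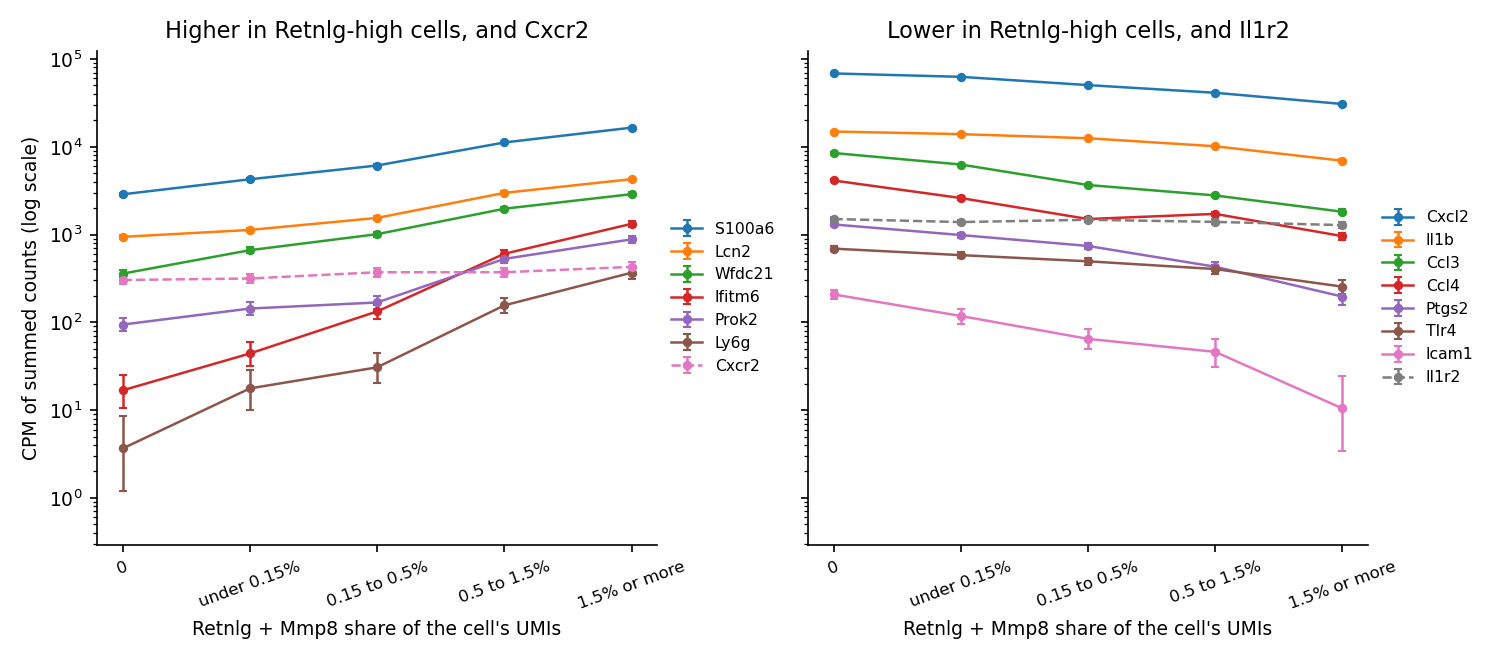
CPM (log scale) of 15 genes in gate cells of 1000 to 3000 UMIs, divided by the share of UMIs on Retnlg and Mmp8, with exact Poisson 95% intervals of the summed counts. Left, genes that are higher in Retnlg-high neutrophils, and Cxcr2 (dashed). Right, genes that are lower, and Il1r2 (dashed). Ly6g goes from 3.65 to 367.6 CPM and Icam1 from 208.2 to 10.4, while Cxcr2 stays between 303.2 and 428.2.

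At the limit of the rule, cells with 3 UMIs of Retnlg and Mmp8 (189 cells, just inside) and with 2 UMIs (253 cells, just outside) had similar depths, at medians of 1581 and 1508 UMIs. Retnlg was at 1307 and 843.0 CPM in them and Mmp8 at 388.8 and 297.5. Wfdc21 was at 942.1 and 574.8 CPM, Ly6g at 35.9 and 9.02, Ccl3 at 3837 and 5741 and Icam1 at 32.9 and 105.9. Ifitm6 was at 361.9 CPM with 3 UMIs and 24.8 with 2. Genes of other cells and granule genes also differed across this edge. Apoe was at 382.8 and 903.8 CPM, C1qa at 143.6 and 284.0 and H2-Aa at 26.9 and 322.3, all lower with 3 UMIs, while Ngp was at 565.2 and 15.8 and Camp at 299.1 and 11.3. Their part in the differences was not tested. These values describe the edge and are not tested.

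The members were not uniform, and secondary granule transcripts lay in a minority of them. Of 1656 members, 261 held 3 or more UMIs of Ngp, Ltf and Camp together (15.8%; 14.04 to 17.6%), against 8 of 1862 other gate cells (0.430%; 0.186 to 0.845%). Ngp was at 0 in 78.6% of members and reached 345 UMIs in 1 cell. These granule-rich members were deeper, at a median of 4452 UMIs and 1294 genes, against 1981 UMIs and 751 genes in the other 1395 members, and 3 or more UMIs of the monocyte markers were in 18.8% of them and 5.95% of the other members. For the macrophage markers these shares were 28.0% (22.6 to 33.8%) and 15.6% (13.8 to 17.6%). The part of either in the contrasts below was not tested. Ngp, Ltf and Camp chose the cells and are not compared.

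Granule-rich members carried most of the Ly6g and little Ccl3. Ly6g was at 1266 CPM in them (1206 to 1330), 135.4 in the other members (123 to 149) and 11.4 in the other gate cells, and 3 or more Ly6g UMIs were present in 71.6% (65.8 to 77.0%), 4.01% (3.05 to 5.18%) and 0.107% of cells (0.0130 to 0.388%). Ifitm6 was at 5148, 494.2 and 87.5 CPM, Serpinb1a at 493.6, 16.6 and 27.8, and Cybb at 938.7, 134.2 and 137.7. The other gate cells here still include their 8 granule-rich cells, and 1 cell gave 43.4% of their Serpinb1a UMIs. With granule-rich cells left out of both sets, Serpinb1a was higher in members, at a log2 ratio of 2.53, and Cybb was at 0.37. Ccl3 was at 262.1, 3053 and 6856 CPM, Cxcl2 at 9338, 40092 and 59649 and Il1b at 1593, 9456 and 13470, so the other members lay between for all 3. Cebpe, a transcription factor required for secondary granule genes, had 54 UMIs in granule-rich members, 5 in the other members and 20 in the other gate cells. Only 32 of the 261 held 3 or more UMIs of Ccl3 and Ccl4 (12.3%; 8.54 to 16.9%), against 38.1% of the other members (35.6 to 40.7%).

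The same contrasts were present among members of 1000 to 3000 UMIs. In 55 granule-rich and 1029 other members of that range, Ly6g was at 1124 and 86.1 CPM, 13.05 times (10.4 to 16.4), and Ifitm6 at 4100 and 329.6, 12.4 times (11.1 to 13.99). Cybb was at 498.6 and 52.3 CPM, 9.54 times (6.85 to 13.2), and Anxa1 at 2675 and 434.2, 6.16 times (5.42 to 6.998). Ccl3 was at 482.8 and 3251 CPM, 0.149 times (0.113 to 0.191), and Ptgs2 at 55.4 and 548.5, 0.101 times (0.0405 to 0.209). Cxcr2 was at 1.29 times (0.978 to 1.68), an interval that includes equal levels. Retnlg was at 2.18 times (2.08 to 2.28). The rule used it to choose all members, so this value is a description and is not compared with the other genes.

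**Figure D5:**
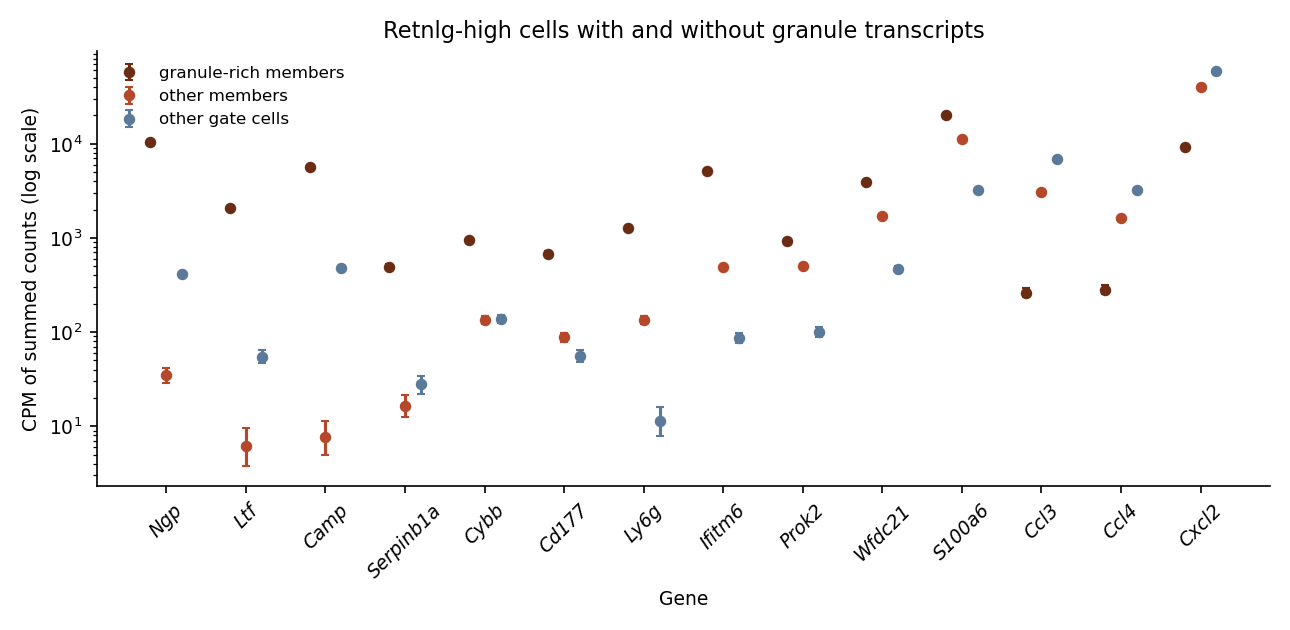
CPM (log scale) of 14 genes in 261 granule-rich members (3 or more UMIs of Ngp, Ltf and Camp), the other 1395 members and the 1862 other gate cells, with exact Poisson 95% intervals, many of them smaller than the points. Ngp, Ltf and Camp chose the granule-rich cells. The other gate cells include 8 that are granule-rich. Ly6g, Ifitm6, Prok2, Wfdc21 and S100a6 fall in the order granule-rich, other members, other gate cells, Ccl3, Ccl4 and Cxcl2 in the opposite order, and Cybb is alike in the last 2 sets, at 134.2 and 137.7.

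With granule-rich cells left out of both sets, some of the higher genes stayed past 2-fold and others fell short of it. With 1395 members and 1854 other gate cells, 4597 genes were tested. Of these, 95 were 2-fold or more higher, 88 of them among the 217, and 101 were lower, 97 of them among the 236. The log2 ratio stayed past 1 for Ly6g (4.28), Ifitm6 (4.43), Ggt1 (3.66), Padi4 (2.53), Stfa3 (2.34), Prok2 (2.30), Lcn2 (1.32) and S100a6 (1.78). It fell short of 1 for Cybb (0.37), Rac2 (0.79), Mmp25 (0.63) and Lta4h (0.15), the last of which makes leukotriene B4. Ccl3, Icam1 and Il23a remained lower, at −1.19, −1.86 and −1.92. In the secondary granule list 4 of 11 tested genes were then 2-fold higher in place of 10 of 13, a list that holds Ngp, Ltf and Camp, by which the cells were removed. In the mature blood neutrophil list it was 7 of 20 in place of 8 of 21.

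Cells outside the gate could also carry Retnlg. Of 7317 kept cells that did not pass the gate, 297 (4.06%) held 3 or more UMIs of Retnlg and Mmp8, at a median depth of 6385 UMIs and a median share of 0.169% on the gate genes. Of these, 181 also held 3 or more UMIs of C1qa, C1qb, C1qc and Apoe, and 68 lay just under the gate, at 1 to 2%. They are not members and entered no ratio above.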

How the data were processed

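The deposited matrix of 1 treated library holds unnormalized counts of UMIs. Per the file headers it was written by Cell Ranger 8.0.1, and the submitters' processing notes add STAR. The genome build is not given in the sources used here. The PBS library was not analysed here. The matrix holds 12309 barcodes and 96873409 UMIs, and all 10835 barcodes that the authors kept under the experimental group are in it (37 of 11643 control barcodes are, and 33 kept barcodes are listed under both libraries). Members and gene lists were chosen with earlier results of these data known.

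Each set of cells was reduced to its summed UMIs, with exact Poisson, conditional Poisson and Clopper-Pearson intervals at 95% (scipy 1.17.1, numpy 2.4.6, pandas 2.3.3, Python 3.11.15). Log2 ratios, from which 2-fold was called, had 0.5 UMI added to each sum. Rule genes were left out of the 5092 genes tested, which had 100 or more UMIs. The computation was tested on simulated data with known folds. Free RNA was not subtracted. Scrublet (scanpy 1.11.5) marked 0 cells, so it had not worked. The 588 cells with the highest scores (91 members and 51 other gate cells) were left out as an alternative. Alternatives changed the limits on Retnlg and Mmp8, the gate, depth, cells, weighting, totals, filter, fold and pseudocount. Those without granule-rich cells, without macrophage and monocyte marker cells and without the top cell were chosen after seeing the data. Named genes were the 6 markers, the 12 highest and the 12 lowest ratios with 200 or more UMIs, and up to 4 of each list with 50 or more UMIs. Others, such as Cxcr2, Mcl1, Trem1, Mmp9, Itgam, Fpr1, Tlr2, Spi1, Itgal and Cd274, were added after their values were seen. Of 638 list genes, 632 matched by symbol, 5 by gene ID and 1 did not.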

Additional observations from a re-analysis of the deposited data

Results flagged for a closer look

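Some barcodes that the authors had left out of their kept cells, and that entered no comparison above, also met the membership rule. Of 1474 such barcodes, 53 passed the neutrophil gate and 24 met the whole rule, 1.63% of them (exact Clopper-Pearson 95% interval 1.05 to 2.41%). A count of 0 would have allowed up to 0.204%, which is no measure of background, and the rule's own values chose these barcodes. Their median was 1922.5 UMIs and 632 genes. Of the 24, 10 had under 300 genes and 8 had 20000 UMIs or more.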

How the results depend on the processing

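No paired analysis was possible because there is 1 library and no result comes from a test between samples. The share of gate cells that are members was 47.1%, and it was 54.3% at 2 UMIs, 37.9% at 5 UMIs, 56.5% with the gate at 5% and 40.7% after thinning to 1000 UMIs. The 217 higher and 236 lower genes became 76 (68 of them shared) and 125 (90 shared) among cells of 1000 to 3000 UMIs, where 3566 genes were tested in place of 5092. They became 653 and 1126 with a filter at 10 UMIs, 544 and 819 at 1.5-fold, and 95 and 101 without granule-rich cells, and 157 genes were lower with totals that leave out the rule genes. Log2 ratios changed sign for few genes. At 0.15% of UMIs these were Ppbp (−1.28), Tmsb10 (−0.20), Ccr2 (−0.36), F13a1 (−0.75), Vcan (−0.66) and Ms4a4c (−0.27). At 1000 to 3000 UMIs they were Tmsb10 (−0.11), Ccr2 (−0.18), Arg1 (−0.67), F13a1 (−0.63) and Vcan (−0.79). Without macrophage and monocyte marker cells they were Mmp12 (−0.44), Ccr2 (−0.23), Arg1 (−0.47), Vcan (−0.22) and Ms4a4c (−0.56), and without cells of 3 or more UMIs of C1q and Apoe Mmp12 (−0.40) and Arg1 (−0.06). Without high doublet scores they were Arg1 (−0.23) and Ms4a4c (−0.10), without granule-rich cells Ltf (−0.99, fixed by removing cells for their Ltf) and Prtn3 (0.28), and without the top cell Prtn3 (0.32). The cause of the others was not tested. Leaving out interferon-induced cells or adding 1 UMI kept all 126 ratios within their intervals, and at 1000 to 3000 UMIs 79 of 124 moved outside them without changing sign. Genes under 100 UMIs were not tested at this depth.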
